A study of Mus musculus with 6 samples.

Results

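The genes described here take fatty acids up into cells and oxidise them in mitochondria, together with the nuclear receptors and coactivators that control such genes. They were the 38 genes of a fixed list, matched by symbol among the 46983 genes of the deposited count table, and all 38 had enough counts to be tested. The list holds 6 transcriptional regulators, 4 genes of uptake and binding, 3 acyl-CoA synthetases, 4 genes of the carnitine shuttle, 4 acyl-CoA dehydrogenases, 6 enzymes from the hydratase to the thiolase step, 3 isomerases and reductases for unsaturated fatty acids, 3 genes of electron transfer, and 5 genes of storage, lipolysis and thioester cleavage. RNA was sequenced from whole hearts of mouse embryos (strain C57BL/6 x DBA/2) at embryonic day E13.5, with 1 heart in each library. The 3 mutant hearts (replicates 1, 5 and 10) carried the genotype TnnT2Cre;Wt1flox, in which Cre recombinase driven by the cardiac troponin T promoter is meant to delete Wt1, the gene of a transcription factor. The 3 control hearts (replicates 2, 3 and 5) are labelled wild type. According to the study's methods they lacked Cre but carried the floxed Wt1 alleles on both chromosomes, so the groups share the floxed alleles and differ in Cre and in the deletion. According to the study, the driver is active in the myocardium and also in part of the epicardium. The comparison asked which transcripts of fatty acid metabolism differed when WT1 was removed from the troponin T lineage.

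Fatty acids reach the heart as lipoprotein triglycerides or bound to albumin. They are released by lipoprotein lipase, cross membranes with the help of CD36, are carried by binding proteins, and are activated to acyl-CoA esters, which enter mitochondria as carnitine esters. There they are shortened stepwise by beta-oxidation, and the electrons pass to the respiratory chain. The adult heart draws most of its energy from this pathway, whereas the embryonic heart relies more on glucose and lactate, and the switch takes place around birth. PPAR-alpha and the oestrogen-related receptors, with the coactivators PGC-1alpha and PGC-1beta, are the known transcriptional regulators of these genes.

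Total counts lay between 44244665 and 56373393 in the 6 hearts, and 17473 genes were tested. CPM below means the count scaled to the TMM-normalized library size, FPKM means the deposited value scaled also to transcript length, and values follow the order wild type replicates 2, 3 and 5, then mutant replicates 1, 5 and 10. Wt1 itself was at 40.0, 32.9 and 20 CPM and then at 17.7, 33.3 and 35.7 CPM, so the groups overlapped, and a count over the whole gene does not separate recombined from intact alleles. Wild type replicate 5 stood apart, with short genes high and long genes low (Spearman's rho of a gene's deviation with its length −0.556 across 11795 genes, against −0.062 to 0.464 in the other 5 hearts). It and mutant replicate 10 had the most red cell transcripts (38865 and 42219 summed CPM of 9 erythroid genes, against 12339 to 16419 in the others). Wild type replicate 3 had the most hepatocyte transcripts (811 summed CPM of the hepatocyte markers, against 3.72 to 24.1 in the others). The part of these transcripts in the values below was not tested. All 15 cardiomyocyte markers were detected, with sums of 29616 to 34157 CPM in wild type and 32288 to 36290 CPM in mutant hearts. The macrophage markers summed to 136 to 200 CPM in wild type and 237 to 245 CPM in mutant hearts, and 9 of the 11 tested were higher with an unadjusted p under 0.05, where 3.14% of all genes were. The megakaryocyte and platelet markers summed to 22.9 to 34.8 CPM and 38.5 to 54.9 CPM, and 6 of 8 were higher with such a p. In RNA of a whole heart, a difference in the number of cells of a type and a difference in RNA per cell cannot be told apart. Each heart was a separate embryo, and the p-values below measure the spread between these embryos.

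Promoter windows of RefSeq (GRCm38.p6, from 250 bases before to 50 bases after a start site) were at hand for 29 of the 38 genes, as 34 windows. The half-site AGGTCA, which nuclear receptors of the PPAR and oestrogen-related families bind, and the motifs below were searched on both strands. The half-site occurred in 6 of the 34 windows (17.6%), those of Acadm, Acadvl, Cd36, Cpt1a, Echs1 and Plin2, against 16.3% of all 32851 windows. The longer element CAAGGTCA, which contains the half-site, was in 0 of the 34 windows (1.56% of all), and the DR1 element, a direct repeat of the half-site spaced by 1 base, also in 0 (0.0396% of all). The GC box GGGCGG was in 23 of the 34 (67.6%, against 35.7% of all). The windows of 3 genes are shown because they carry the half-site and belong to the entry step and the dehydrogenases described below. Each line gives the bases from −250 to −51 of the start site, 5′ to 3′ on the strand of the gene, with the half-site or its reverse complement in capitals. The window of Acadm, at chr3:153944694-153944893 on the minus strand, and that of Acadvl, at chr11:70015479-70015678 on the minus strand, lie before the annotated genes. The window of Cpt1a, at chr19:3323051-3323250 on the plus strand, lies inside the annotated gene, which starts at 3322334 with an earlier first exon.
Acadm: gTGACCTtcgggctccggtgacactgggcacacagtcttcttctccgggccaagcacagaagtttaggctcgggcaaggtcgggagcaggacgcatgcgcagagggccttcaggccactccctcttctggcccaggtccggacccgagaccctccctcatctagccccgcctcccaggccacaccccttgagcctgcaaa
Acadvl: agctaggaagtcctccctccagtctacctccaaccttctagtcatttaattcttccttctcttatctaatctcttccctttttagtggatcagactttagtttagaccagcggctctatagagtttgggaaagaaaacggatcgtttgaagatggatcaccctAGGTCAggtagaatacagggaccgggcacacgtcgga
Cpt1a: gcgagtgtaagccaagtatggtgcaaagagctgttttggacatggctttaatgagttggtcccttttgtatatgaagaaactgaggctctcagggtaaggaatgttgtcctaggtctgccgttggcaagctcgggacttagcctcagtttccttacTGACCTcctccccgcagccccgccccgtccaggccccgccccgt
The half-site starts at −249 in Acadm, −87 in Acadvl and −94 in Cpt1a. A match of letters describes the window only and says nothing of binding in these hearts.

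The 38 genes spanned a 295-fold range of level in the wild type heart. The order below is by deposited FPKM. Fabp3, which encodes the fatty acid binding protein of heart and muscle, was at the top with 398 ± 74.3 FPKM (SD, n = 3). It was followed by Acadl (269 ± 3.76), Acadm (263 ± 18.8), Etfa (259 ± 20.3), Acat1 (214 ± 28.0) and Hadha (201 ± 34.5 FPKM), which encode enzymes of the oxidation itself. In all, 9 genes exceeded 100 FPKM and 7 lay under 10 FPKM. The low end held Fabp4, Esrrb, Dgat2, Ppargc1b, Etfb, Ppara (1.73 ± 0.336 FPKM) and Cpt1b (1.35 ± 0.617 FPKM). The levels of Etfb and Cpt1b, and so the low end of the range, are uncertain. Most of their exon bases are shared with other genes on the same strand. Of the 37 pairs of neighbours in this order, 30 had overlapping ranges in the wild type hearts and their order is not resolved. The 7 breaks lay below Fabp3, Hadha, Acads, Slc25a20, Dgat1, Acsl1 and Etfb. FPKM depends on the length assigned to a gene, and per kilobase of the longest annotated transcript the order moved in places (Acaa2 from place 8 to 4, Acat1 from 5 to 7), while Fabp3 and Acadl stayed in the first places and Ppara and Cpt1b in the last.

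**Figure D1:**
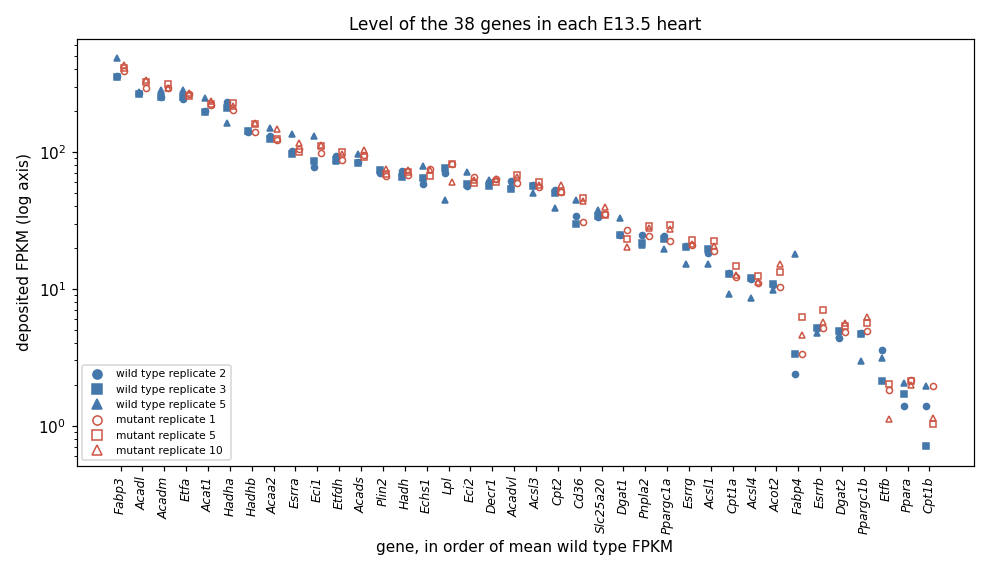
Deposited FPKM (log axis) of each of the 38 genes in each E13.5 heart, with wild type hearts as filled blue and mutant hearts as open red symbols, ordered by the mean of the wild type hearts. The genes run from Fabp3 (398 FPKM) to Cpt1b (1.35 FPKM, an uncertain level). The hearts lie farthest apart for Fabp4, whose highest heart is wild type replicate 5.

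Between the groups, most of the 38 genes were slightly higher in the mutant hearts, but none passed the test. By the quasi-likelihood test of edgeR, with p-values adjusted after Benjamini and Hochberg over all 17473 genes, 0 of the 38 had an adjusted p under 0.05, where 0% of all genes did, and the smallest adjusted p among the 38 was 0.847. The fitted log2 fold change, mutant over wild type, was above 0 for 32 of the 38 (84.2%, against 49.8% of all genes), with a median of 0.14 against −0.001 over all genes. An unadjusted p under 0.05 was found for 4 genes (10.5%, against 5.73% of all genes). Of these, Ppargc1b, Acadl and Pnpla2 were higher (7.89%, against 3.14%) and Etfb was lower (2.63%, against 2.59%). The values of the mutant and wild type hearts did not overlap for 7 genes (18.4%, against 11.2% of all genes), of which Ppara, Ppargc1b, Esrrb, Esrrg, Acadl and Acadm were higher (15.8%, against 6.61%) and Etfb was lower. DESeq2 gave 3 of the 38 an unadjusted p under 0.05, namely Acadl, Ppargc1b and Etfb (7.89%, against 4.32% of the 26776 genes with a p-value). It gave 0 of the 38 an adjusted p under 0.05, against 0.677% of the 19493 genes that it gave an adjusted p. The 38 genes share regulators and cells, so they are not independent of each other, and the counts describe the list without testing it.

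**Figure D2:**
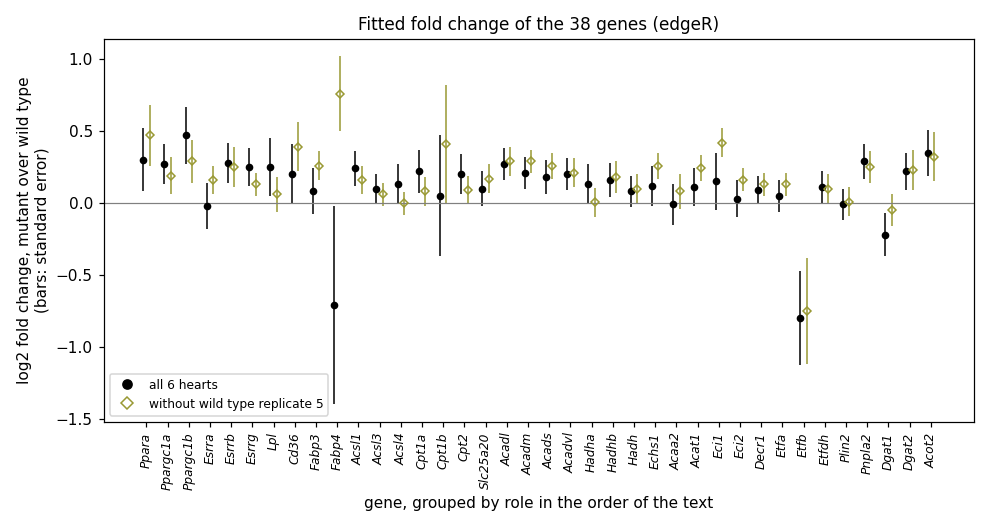
Fitted log2 fold change, mutant over wild type, of each of the 38 genes from edgeR with bars of 1 standard error, for all 6 hearts (black) and without wild type replicate 5 (olive). The 38 values have a median of 0.14 with all hearts and 0.17 without wild type replicate 5, and Fabp4 moves from −0.71 to 0.76.

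The upward shift was not shared by all mutant hearts. The median deviation of the 38 genes from their mean over the 6 hearts was −0.06, −0.11 and 0.02 on the log2 CPM scale in wild type replicates 2, 3 and 5, and −0.05, 0.11 and 0.16 in mutant replicates 1, 5 and 10. Mutant replicate 1 thus lay within the wild type range, and the other two lay above it. Mutant replicate 10 was the highest heart for 21 of the 38 genes, mutant replicate 5 for 8 and wild type replicate 5 for 8. The summed cardiomyocyte markers were also highest in mutant replicate 10 (36290 CPM), and mutant replicate 5 (32573 CPM) lay within the wild type range. Of the 15 cardiomyocyte markers, 12 had a log2 fold change above 0 (median 0.08). The 13 endothelial and endocardial markers summed to 1648, 1401 and 1227 CPM in the wild type and 1481, 1848 and 1746 CPM in the mutant hearts, and 11 of the 13 had a log2 fold change above 0 (median 0.26). The 9 fibroblast and mesenchymal markers summed to 3116, 3247 and 2292 CPM and then to 3244, 4520 and 3968 CPM, with 5 of the 9 above 0 (median 0.05). The 11 epicardial markers summed to 547, 447 and 266 CPM and then to 353, 511 and 651 CPM, and 8 of the 11 were above 0 (median 0.48). An unadjusted p under 0.05 in edgeR's test was found for 4 epicardial, 1 endothelial and 2 fibroblast markers that were higher. It was also found for 1 fibroblast and 1 cardiomyocyte marker that were lower. Of all genes, 3.14% were higher and 2.59% lower with such a p. The part of these cell types and of the macrophages in the shift was not tested. The median deviation of all genes tested was between 0.0029 and 0.02 in every heart. With each heart's trend with gene length removed, the medians were −0.04, −0.11 and −0.10 in the wild type and −0.04, 0.13 and 0.16 in the mutant hearts, so mutant replicate 1 was level with wild type replicate 2. Without mutant replicate 10, the median fold change of the 38 was 0.09 and 0 of the 38 genes had an unadjusted p under 0.05 in edgeR's test, against 3.44% of all genes. Without wild type replicate 5, the median was 0.17 and 8 genes, all of them higher, had an unadjusted p under 0.05 (21.1%, against 6.54% of all genes), namely Fabp3, Fabp4, Acadl, Acadm, Acads, Echs1, Acat1 and Eci1. Even then the smallest adjusted p was 0.178, for Eci1 (Benjamini-Hochberg, edgeR quasi-likelihood).

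**Figure D3:**
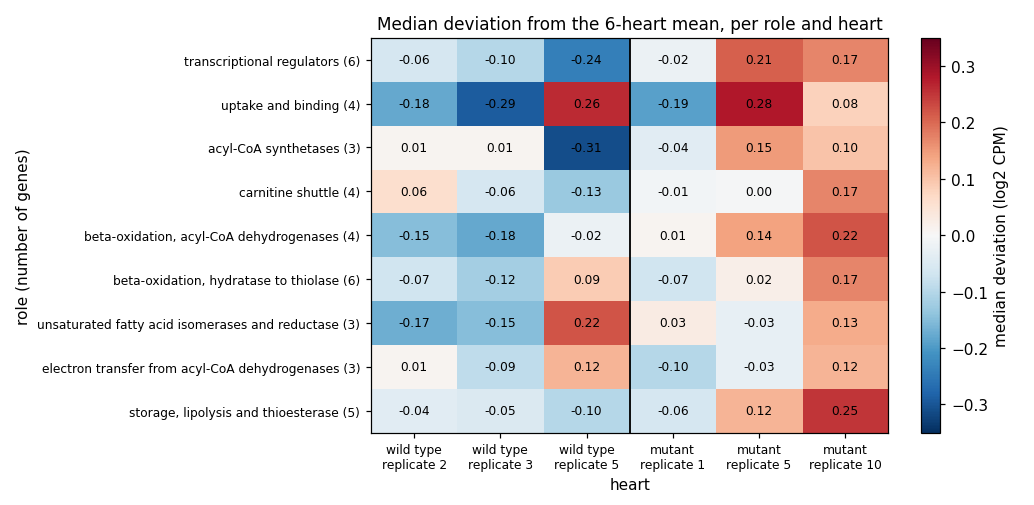
Median deviation from the 6-heart mean (log2 CPM, colour and printed value) of the genes of each role in each heart, with the number of genes in brackets and a black line between wild type and mutant hearts. The regulators are at −0.24 to −0.06 in the wild type and −0.02 to 0.21 in the mutant hearts, whereas uptake and binding is highest in mutant replicate 5 (0.28) and wild type replicate 5 (0.26).

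With all 6 hearts, the transcriptional regulators had the highest median fold change of the 9 roles (0.27 on the log2 scale). Of the 6 regulators, 5 were higher in the mutant hearts. The first rank rested on wild type replicate 5. Without that heart, Ppara, Ppargc1a, Ppargc1b, Esrra, Esrrb and Esrrg were at 0.47, 0.19, 0.29, 0.16, 0.25 and 0.13. The acyl-CoA dehydrogenases Acadl, Acadm, Acads and Acadvl were then at 0.29, 0.29, 0.26 and 0.21. Lpl, Cd36, Fabp3 and Fabp4, of uptake and binding, were then at 0.06, 0.39, 0.26 and 0.76. Ppara, which encodes the nuclear receptor PPAR-alpha that fatty acids activate, was at 2.08, 2.52 and 3.14 CPM in the wild type and 3.17, 3.19 and 3.18 CPM in the mutant hearts. The groups did not overlap, but wild type replicate 5 lay just below the lowest mutant heart, and the log2 fold change was 0.30 (edgeR adjusted p = 0.979, standard error 0.22). Leaving out 1 heart gave 0.17 (without wild type replicate 2) to 0.47 (without wild type replicate 5). Ppargc1a, encoding the coactivator PGC-1alpha that drives mitochondrial genes, was at 73.3, 69.0 and 60.1 CPM and then at 66.6, 89.3 and 88.0 CPM, with mutant replicate 1 inside the wild type range (log2 fold change 0.27, standard error 0.14). Its relative Ppargc1b, encoding PGC-1beta, was at 11.5, 11.3 and 7.36 CPM in the wild type and 11.8, 13.8 and 16.1 CPM in the mutant hearts. All mutant hearts were higher, mutant replicate 1 by little. Its log2 fold change was 0.47 (standard error 0.20), the highest of the 38, with an unadjusted p of 0.0458 and an adjusted p of 0.862 (Benjamini-Hochberg, edgeR quasi-likelihood). Wild type replicate 5 was the low heart, and without it the value was 0.29 (standard error 0.15). Ppargc1b had an unadjusted p under 0.05 in 10 of the 15 other settings.

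The oestrogen-related receptors are orphan nuclear receptors that act with PGC-1 coactivators on genes of oxidative metabolism. Esrra was the most abundant of them by FPKM (111 ± 22.1 in wild type hearts, SD, n = 3, against 18.6 ± 2.93 for Esrrg and 5.03 ± 0.245 for Esrrb). It was at 92.2, 86.7 and 127 CPM in the wild type and 95.5, 91.4 and 113 CPM in the mutant hearts. The groups overlapped, and the log2 fold change of −0.02 (standard error 0.16) turned to 0.16 without wild type replicate 5. Esrrg was at 66.2, 65.2 and 50.4 CPM and then at 67.6, 74.9 and 73.3 CPM, with all mutant hearts higher (log2 fold change 0.25, standard error 0.13, edgeR adjusted p = 0.928). The value for Esrrg was 0.13 without wild type replicate 5. Esrrb was at 12.8, 12.7 and 12 CPM and then at 12.8, 17.5 and 15.1 CPM. Mutant replicate 1 was here almost level with the wild type hearts, and the log2 fold change of 0.28 (edgeR adjusted p = 0.920, standard error 0.14) came from the other two and was 0.15 without mutant replicate 5. Esrra and Esrrg therefore differed in pattern, since wild type replicate 5 was the highest heart for Esrra and the lowest for Esrrg. The length used in the FPKM is 924 bases for Esrra and 3291 bases for Esrrg. Short genes were high and long genes low in that heart, and the part of length in this pattern was not tested.

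The genes of uptake and binding differed widely between the wild type hearts. Lpl encodes lipoprotein lipase, which releases fatty acids from circulating triglycerides, and was at 160, 175 and 105 CPM in the wild type and 186, 189 and 148 CPM in the mutant hearts. Wild type replicate 5 was the low heart, and the log2 fold change of 0.25 (standard error 0.20) was 0.06 without it. Cd36, encoding the membrane protein that takes up long-chain fatty acids, was at 83.9, 72.8 and 112 CPM and then at 76.4, 115 and 116 CPM, with a high and a low heart in each group (log2 fold change 0.20, standard error 0.21, and 0.07 without wild type replicate 3). Fabp3 was at 289, 285 and 400 CPM in the wild type and 313, 338 and 377 CPM in the mutant hearts. The groups overlapped through wild type replicate 5, and the log2 fold change of 0.08 (standard error 0.16) was 0.26 without it and −0.004 without wild type replicate 3. Of the exon bases of Fabp3, 19.6% are shared with genes on the opposite strand, so reads there are uncertain.

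Fabp4, the binding protein of adipocytes, macrophages and capillary endothelium, had the most variable level of all 38 genes, with a coefficient of variation of FPKM of 110% between wild type hearts. It was at 6.09, 8.47 and 46.1 CPM in the wild type and 8.48, 16.0 and 12.4 CPM in the mutant hearts. Wild type replicate 5 was far above every other heart, mutant replicates 5 and 10 lay between it and the other two wild type hearts, and mutant replicate 1 was level with wild type replicate 3. Fabp4 had a log2 fold change of −0.71 (edgeR adjusted p = 0.985, standard error 0.69) with all hearts and turned to 0.76 (edgeR adjusted p = 0.307, standard error 0.26) without wild type replicate 5. For the sum of the endothelial and endocardial markers given above, wild type replicate 5 was the lowest heart. That sum does not separate capillary endothelium from endocardium. Gpihbp1, a low-level gene of capillary endothelium, was at 0.799, 1.17 and 3.50 CPM and then at 1.46, 2.23 and 1.37 CPM. Its highest heart was wild type replicate 5, as for Fabp4. The macrophage markers summed to 136, 159 and 200 CPM and then to 245, 237 and 241 CPM. The 8 adipocyte markers summed to 5.38 to 6.75 CPM in the wild type and 5.82 to 6.98 CPM in the mutant hearts, and Cfd, Cidec, Lep and Retn had at most 3 counts in every heart. The part of these cell types in the level of Fabp4 was not tested.

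Acyl-CoA synthetases activate fatty acids for all further use. All 3 were higher in the mutant hearts, with log2 fold changes of 0.10 to 0.24 and overlapping groups. Acsl1, the form that dominates in adult heart, was at 38.8, 41.2 and 33.0 CPM in the wild type and 39.6, 47.6 and 46.7 CPM in the mutant hearts. Mutant replicate 1 lay among the wild type hearts and the other two above them (log2 fold change 0.24, standard error 0.12, edgeR adjusted p = 0.928), and the value was 0.16 without wild type replicate 5. Acsl3 (0.10, standard error 0.10) and Acsl4 (0.13, standard error 0.14) were closer to 0, and Acsl4 was at −0.0038 without wild type replicate 5. Among the 3, Acsl3 had the highest FPKM, at 54.7 ± 3.64 in wild type hearts (SD, n = 3) against 17.8 ± 2.23 for Acsl1 and 10.9 ± 1.91 for Acsl4.

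The carnitine shuttle carries activated fatty acids into mitochondria, and its first enzyme, carnitine palmitoyltransferase 1, sets the rate of entry. In these hearts its liver form had the higher level, with 11.6 ± 2.15 FPKM for Cpt1a against 1.35 ± 0.617 FPKM for Cpt1b in the wild type (SD, n = 3). Cpt1a was at 55.1, 53.8 and 39.6 CPM in the wild type and 51.8, 63.6 and 57.1 CPM in the mutant hearts. The groups overlapped and wild type replicate 5 was the lowest heart, so the log2 fold change of 0.22 (standard error 0.15) was 0.08 without it. Cpt1b, the form of adult heart and muscle, had 47 to 117 counts in any heart, at 1.62, 0.817 and 2.29 CPM and then at 2.25, 1.2 and 1.41 CPM. Its highest and lowest hearts were both wild type, the log2 fold change was 0.05 (standard error 0.42), and it turned to −0.26 without wild type replicate 3. Of its exon bases (chromosome 15, 89416405 to 89425863, GENCODE M21 on GRCm38), 81.4% are shared with Gm44502 on the same strand, which the tables used here do not list, so the level of Cpt1b is uncertain.

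The other two shuttle genes were also within the spread between hearts. Cpt2, which turns acylcarnitines back into acyl-CoA inside mitochondria, was at 51.0, 48.3 and 38.2 CPM in the wild type and 49.2, 50 and 59.0 CPM in the mutant hearts. Slc25a20, the carnitine-acylcarnitine translocase of the inner membrane, was at 58.4, 59.1 and 67.9 CPM and then at 61.8, 61.9 and 74.7 CPM. For both, mutant replicate 10 was the highest heart and the groups overlapped. Their log2 fold changes were 0.20 (standard error 0.14) and 0.10 (standard error 0.12), that of Cpt2 was 0.09 without wild type replicate 5, and that of Slc25a20 was 0.0033 without mutant replicate 10.

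The acyl-CoA dehydrogenases catalyse the first step of each round of beta-oxidation, each on its own chain lengths. All 4 were higher in the mutant hearts, with log2 fold changes of 0.18 to 0.27 and a median of 0.21. Acadl, the long-chain enzyme (chromosome 1, 66830839 to 66863277), was at 340, 335 and 353 CPM in the wild type and 371, 415 and 452 CPM in the mutant hearts. The groups did not overlap, and the wild type hearts were close together (342 ± 9.33 CPM, SD, n = 3) while the mutant hearts were spread (413 ± 40.4). For Acadl the log2 fold change was 0.27 (standard error 0.11), with an unadjusted p of 0.0454 and an adjusted p of 0.860 (Benjamini-Hochberg, edgeR quasi-likelihood). It had an unadjusted p under 0.05 in 10 of the 15 other settings tried, and an adjusted p under 0.05 in none of them, the smallest being 0.308.

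Acadm, the medium-chain enzyme whose promoter window is printed above (chromosome 3, 153922357 to 153944632), was at 198, 196 and 227 CPM in the wild type and 228, 246 and 247 CPM in the mutant hearts. All mutant hearts were higher, mutant replicate 1 by little over wild type replicate 5. The fitted log2 fold change was 0.21 (edgeR adjusted p = 0.924, standard error 0.11), and 0.29 (edgeR adjusted p = 0.219) without wild type replicate 5. Acadvl, the very-long-chain enzyme of the inner membrane, was at 67.3, 58.6 and 64.7 CPM and then at 65.4, 75.5 and 77.4 CPM. Mutant replicate 1 lay inside the wild type range (log2 fold change 0.20, standard error 0.11). Its count is uncertain, since 42.9% of its exon bases are shared with Dvl2 on the opposite strand. Acads, for short chains, had a log2 fold change of 0.18 (standard error 0.12) with overlapping groups, and of 0.09 without mutant replicate 10.

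**Figure D4:**
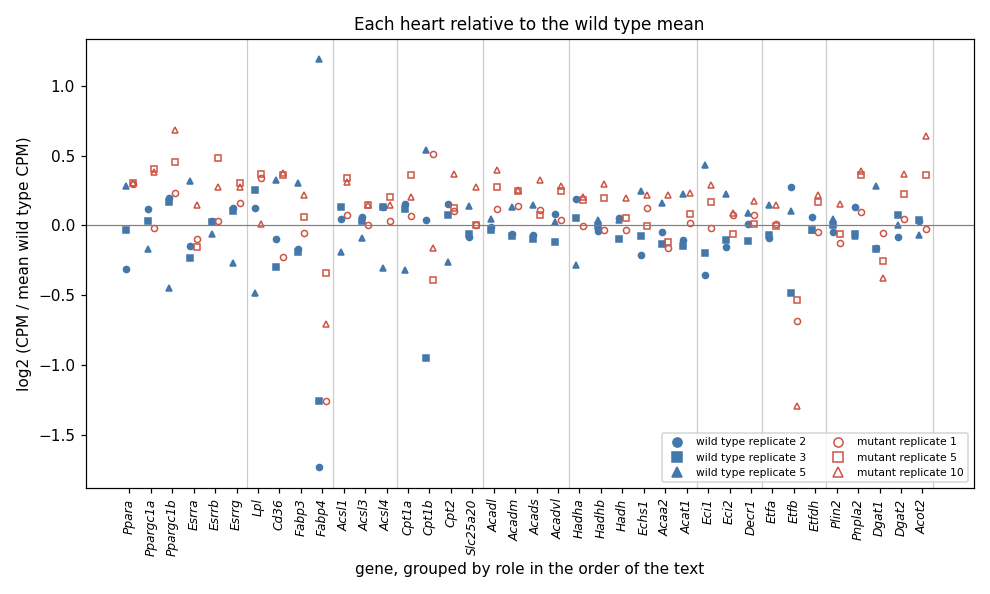
CPM of each heart relative to the mean of the wild type hearts, on a log2 scale, for each of the 38 genes grouped by role, with grey lines between roles, wild type hearts as filled blue and mutant hearts as open red symbols. Wild type replicate 5 (filled triangle) is the highest heart for 8 genes and the lowest for 13, mutant replicate 10 (open triangle) is the highest for 21, and Etfb is low in all mutant hearts.

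The steps from the hydratase to the thiolase showed smaller differences. Of the 6 genes, 5 were higher in the mutant hearts, the median log2 fold change was 0.12, and no gene had groups that did not overlap. Hadha and Hadhb encode the subunits of the mitochondrial trifunctional protein, which carries out the later reactions of the cycle on long chains, and they lie head to head on chromosome 5 (30118304 to 30155162 and 30155248 to 30184593). Hadha was at 359, 327 and 259 CPM in the wild type and 314, 357 and 362 CPM in the mutant hearts. Hadhb was at 202, 207 and 213 CPM and then at 203, 237 and 255 CPM. These neighbours differed in wild type replicate 5, the lowest heart for Hadha and the highest wild type heart for Hadhb. The log2 fold change was 0.13 (standard error 0.14) for Hadha, 0.0047 without wild type replicate 5, and 0.16 (standard error 0.12) for Hadhb, 0.09 without mutant replicate 10. Hadh, the dehydrogenase for shorter chains, Echs1, the hydratase, and Acat1, a thiolase that also serves ketone body use, had log2 fold changes of 0.08, 0.12 and 0.11. Acaa2, another thiolase, was at −0.01 (standard error 0.14) and turned to 0.08 without wild type replicate 5.

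Unsaturated fatty acids need further enzymes that move or reduce their double bonds. Eci1, Eci2 and Decr1 had log2 fold changes of 0.15, 0.03 and 0.09 with standard errors of 0.20, 0.13 and 0.10. For Eci1, wild type replicate 5 was the highest heart at 143 CPM, against 83.2 and 92.4 CPM in the other wild type hearts and 105, 119 and 130 CPM in the mutant hearts. Without it the log2 fold change was 0.42 (edgeR adjusted p = 0.178, standard error 0.10), the lowest adjusted p of the 38 genes in that fit. Eci2 turned to −0.04 without wild type replicate 2.

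Electrons from the acyl-CoA dehydrogenases pass through the electron transfer flavoprotein, a dimer encoded by Etfa and Etfb, and then through the dehydrogenase encoded by Etfdh to ubiquinone. Etfb was the gene that went furthest against the rest of the list. It had 110, 66 and 76 counts in the wild type and 52, 58 and 33 counts in the mutant hearts, or 1.95, 1.15 and 1.73 CPM and then 1, 1.11 and 0.656 CPM. All mutant hearts were lower, mutant replicate 5 by little. The log2 fold change was −0.80 (standard error 0.33), with an unadjusted p of 0.0400 and an adjusted p of 0.847 (Benjamini-Hochberg, edgeR quasi-likelihood), and −0.61 without mutant replicate 10. Etfb had an unadjusted p under 0.05 in 10 of the 15 other settings.

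The level of Etfb was far below that of its partner. Etfa was at 259 ± 20.3 FPKM and Etfb at 2.94 ± 0.748 FPKM in the wild type hearts (SD, n = 3). Of the exon bases of Etfb (chromosome 7, 43444083 to 43457800), 58.2% are shared on the same strand, with Gm45233 and Mir7051, and the tables used here do not list Gm45233, and how reads on the shared bases were assigned is not given, so the level of Etfb and its difference are uncertain. Etfa (log2 fold change 0.05, standard error 0.11) had overlapping groups. Etfdh was at 167, 157 and 157 CPM in the wild type and 155, 180 and 186 CPM in the mutant hearts, with mutant replicate 1 the lowest of all hearts (log2 fold change 0.11, standard error 0.11).

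Genes of storage and release were mixed. Pnpla2 encodes adipose triglyceride lipase, which frees fatty acids from lipid droplets, and lies on chromosome 7 from 141455198 to 141460743. It was at 37.8, 33.0 and 32.7 CPM in the wild type and 36.8, 44.4 and 45.2 CPM in the mutant hearts. Mutant replicate 1 lay below wild type replicate 2 and the groups overlapped. The log2 fold change was 0.29 (standard error 0.12), with an unadjusted p of 0.0427 and an adjusted p of 0.847 (Benjamini-Hochberg, edgeR quasi-likelihood). Pnpla2 had an unadjusted p under 0.05 in 7 of the 15 other settings, not among them DESeq2 or the fit without wild type replicate 5. Plin2, the coat protein of lipid droplets, was at 59.9, 61.8 and 63.7 CPM and then at 56.5, 59.2 and 68.7 CPM, with the lowest and the highest heart both mutant (log2 fold change −0.01, standard error 0.11). Its sign turned to plus without mutant replicate 1 (0.05).

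Dgat1 and Dgat2 encode unrelated enzymes for the last step of triglyceride synthesis. Dgat1 was at 21.3, 21.2 and 29.0 CPM in the wild type and 23.0, 20 and 18.4 CPM in the mutant hearts. Its log2 fold change of −0.22 (standard error 0.15) was −0.05 without wild type replicate 5, the high heart. Dgat2 was at 9.78, 10.9 and 10.4 CPM and then at 10.7, 12.1 and 13.4 CPM (log2 fold change 0.22, standard error 0.13, and 0.14 without mutant replicate 10). Their log2 fold changes were thus on opposite sides of 0 for these enzymes, and the groups overlapped for both. Acot2, a mitochondrial acyl-CoA thioesterase, had a log2 fold change of 0.35 (edgeR adjusted p = 0.907, standard error 0.16), which was 0.18 without mutant replicate 10.

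Pairs of related genes were also compared within each heart, as the log2 ratio of their FPKM, a measure that does not depend on library size. Where the genes of a pair differ in length, the ratio still carries each heart's trend with gene length. Cpt1b was below Cpt1a in every heart, with a log2 ratio of −3.21 ± 0.97 in the wild type and −3.33 ± 0.61 in the mutant hearts (SD, n = 3 each). The level of Cpt1b, and so this ratio, is uncertain because of its shared exon bases. The ratio of Fabp3 to Fabp4 was 6.23 ± 1.30 and 6.48 ± 0.41, and wild type replicate 5 was the low heart at 4.76. The ratio of Ppargc1a to Ppargc1b was 2.46 ± 0.22 and 2.23 ± 0.13, that of Esrra to Esrrg 2.57 ± 0.51 and 2.30 ± 0.17, and that of Acsl1 to Acsl3 −1.62 ± 0.10 and −1.48 ± 0.06. The groups overlapped for all 5 ratios. The difference, mutant minus wild type, was −0.12, 0.26, −0.23, −0.27 and 0.15 in the order given. With each heart's length trend removed it was −0.03, 0.33, −0.24, −0.19 and 0.13. An exact permutation test, two-sided, gave p = 0.9, 0.9, 0.3, 0.7 and 0.2 in this order, or 0.75 to 0.9 adjusted over the 5 ratios with Benjamini-Hochberg, where 3 hearts against 3 cannot give a p below 0.1.

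**Figure D5:**
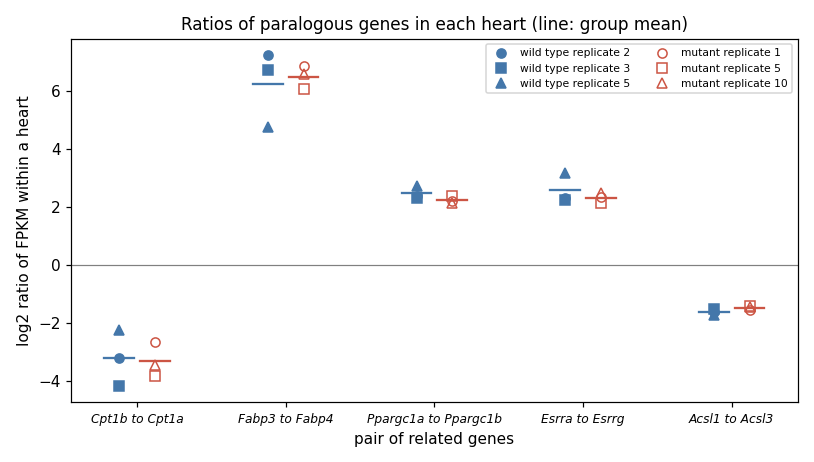
Log2 ratio of the FPKM of 5 pairs of related genes within each heart, with wild type hearts as filled blue and mutant hearts as open red symbols and a line at each group's mean. Cpt1b, whose level is uncertain, lies below Cpt1a in all 6 hearts (−4.17 to −2.24). Wild type replicate 5 stands apart for Fabp3 to Fabp4 (4.76) and Esrra to Esrrg (3.16).

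Related genes outside the 38, among them those of fatty acid synthesis and ketone body use, had a median nearer to 0. Of 134 further genes in 10 lists, 118 were tested, 75 (63.6%, against 49.8% of all genes) were higher and 43 lower in the mutant hearts, and the median log2 fold change was 0.03. The smallest adjusted p was 0.866 (Benjamini-Hochberg, edgeR quasi-likelihood), so 0 passed the threshold, and 1 (0.847%) had an unadjusted p under 0.05, fewer than the 5.73% of all genes that did. This was Acaa1b, a peroxisomal thiolase of low level, at 0.693, 0.504 and 0.682 CPM in the wild type and 0.423, 0.324 and 0.298 CPM in the mutant hearts (log2 fold change −0.84, standard error 0.36). The 19 other enzymes of mitochondrial oxidation had the most uniform direction, with 16 higher and a median of 0.06. The medians were 0.01 for the other PPAR and RXR receptors and coregulators, −0.01 for further PPAR targets, 0.03 for other transporters and binding proteins, and 0.08 for other acyl-CoA synthetases. They were 0.02 for carnitine synthesis and transport, 0.03 for malonyl-CoA and fatty acid synthesis, 0.04 for peroxisomal beta-oxidation, −0.03 for ketone body use, and 0.03 for triglyceride synthesis, lipid droplets and lipolysis.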

How the data were processed

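RNA of 6 whole E13.5 mouse hearts was compared, 3 mutant and 3 wild type by the labels. The study's methods describe trimming with Trim Galore, alignment with STAR to mm10 and counting of uniquely mapped reads with featureCounts on a GRCm38 annotation. The authors deposited counts per gene, which are whole numbers and, judged from their values, not normalized. The processing notes in the labels name HTSeq and DESeq2, with no version, so which program made the deposited counts, and with which strand setting, is not given in the sources used here. The authors also deposited FPKM values, used here for levels between genes and for ratios. In these the count is divided by 1 length per gene, which for 75.9% of 26680 genes is within 1 base of the mean length of its transcripts. All columns of values were mapped to a heart. A further table of mean FPKM per group was not used.

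Counts were tested with edgeR 4.0.16 in R 4.3.3 (quasi-likelihood test, TMM, no covariates, two-sided, and filterByExpr at a minimum count of 10 and minimum total of 15), fitted and adjusted over 17473 genes with a threshold of 0.05. The common biological coefficient of variation was 0.209. The alternatives were DESeq2 1.42.0, limma 3.58.1 (voom on counts, and trend on the log2 of FPKM plus 1 or plus 0.1), other size factors, no filter, removal of each heart's trend with length (local regression, span 0.5), protein-coding genes alone, a threshold of 0.1, and each heart left out. The edgeR, DESeq2 and limma fits and the removal of the trend with length were tested on simulated data. Depth per heart limits genes with few counts. The smallest counts of the 38 genes were those of Etfb and Cpt1b.

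The 38 genes, the 10 pathway lists and the 10 marker lists were chosen with earlier results of these data known. Values in every heart are given for genes with an unadjusted p under 0.05, for genes whose groups do not overlap, and for a fixed set chosen by role. Pathway genes are named where their unadjusted p was under 0.05, and Gpihbp1 is named beside Fabp4. The summed markers of endothelium, fibroblasts, epicardium, macrophages, megakaryocytes, erythroid cells, cardiomyocytes and adipocytes are given in the results. Those of hepatocytes summed to 4.35, 811 and 19.3 CPM in wild type and 24.1, 3.97 and 3.72 CPM in mutant hearts, and the mitochondrially encoded genes to 32413 to 36628 and 26967 to 41125 CPM. Of 277 symbols listed in all, 274 were found. Positions are those of GENCODE M21 (GRCm38), and promoter windows those of RefSeq (GRCm38.p6).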

Additional observations from a re-analysis of the deposited data

How the results depend on the processing

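The direction of the 38 log2 fold changes mostly held. Of 570 values under 15 other settings, 548 had the same sign and 22 the other sign, in 8 genes, and 28 genes were above 0 and 2 below 0 in every setting. No gene of the 38 had an adjusted p under 0.05 in any setting (smallest 0.178). The cause of the changes of sign was not tested. Esrra was at 0.03 with the length trend removed and between −0.13 and 0.16 with 1 heart left out. Acaa2 was at 0.0025 with no filter and 0.0048 with the length trend removed, and Plin2 at 0.0041 and 0.04. Eci2 was at −0.0024 with upper-quartile factors. With 1 heart left out, Acaa2 ranged from −0.14 to 0.08, Plin2 from −0.09 to 0.05, Eci2 from −0.04 to 0.16, Fabp3 from −0.004 to 0.26, Fabp4 from −1.14 to 0.76, Acsl4 from −0.0038 to 0.20 and Cpt1b from −0.26 to 0.41. The number of the 38 genes with an unadjusted p under 0.05, 4 with all hearts (5.73% of all genes), was 2 with the limma fits on log2 FPKM plus 1 (5.66%) or plus 0.1 (5.52%) and with upper-quartile factors (5.56%), 3 with DESeq2 (4.32%), 5 with no filter (5.09%) or the length trend removed (6.92%), and 0 (without mutant replicate 10, 3.44%) to 8 (without wild type replicate 5, 12.2%) with 1 heart left out. Over all genes, edgeR (Benjamini-Hochberg adjusted p under 0.05) called 0, DESeq2 132, edgeR with no filter 34 and with the length trend removed 10, an adjusted p under 0.1 gave 6, and leaving out 1 heart gave 0 to 44, the latter without wild type replicate 5. Genes with an unadjusted p under 0.05 numbered 619 to 2179 with 1 heart left out. The difference in log2 ratio, mutant minus wild type, changed sign for 3 of the 5 pairs with 1 heart left out, ranging from −0.60 to 0.37 for Cpt1b to Cpt1a (−0.12 with all hearts), from −0.48 to 0.75 for Fabp3 to Fabp4 (0.26) and from −0.43 to 0.03 for Esrra to Esrrg (−0.27), each on the other side of 0 without wild type replicate 5, and for Cpt1b to Cpt1a also without mutant replicate 5. No paired analysis was made, because the replicate numbers come from the sample titles and no litter or pairing is given with them. The log2 fold changes of the 38 genes ran from −0.80 to 0.47 (median 0.14), with standard errors of 0.10 to 0.69. With 3 hearts a group, differences of this size were not resolved from the variation between hearts.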
